A study of Mus musculus with 8 samples.

Results

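Fcer2a, which encodes the low-affinity IgE receptor CD23, and 9 genes that mark marginal zone B cells (Cr2, Cd1d1, Notch2, Dtx1, Cd9, Myof, Asb2, Plac8 and Tm6sf1) were followed in splenic B cells of mice. The 10 genes were chosen by name, and each matched 1 of the 49315 features in the deposited expression table. Poly(A)-enriched RNA sequencing was done on total B cells isolated from spleens of mice aged 4 months, as 4 UMPS_BKO and 4 control libraries. UMPS_BKO mice are labelled as having a B cell deletion of Umps, the enzyme that makes uridine monophosphate at the end of de novo pyrimidine synthesis, and control mice as CD23Cre+ without that deletion. Both groups are labelled FcγRIIB-/-, for the loss of an inhibitory Fc receptor (gene Fcgr2b), a genotype that serves as a model of spontaneous lupus. The labels name the Cre in the control genotype only, and do not say which Cre drove the deletion. They do not say either that replicates are different animals, and the p-values below cover only how far these libraries spread, part of which may be technical.

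Follicular B cells carry much CD23 and circulate through the B cell follicles, whereas marginal zone B cells sit at the border of the white pulp, carry little CD23 and respond fast to blood-borne antigen. The marginal zone fate depends on Notch2, a receptor that is cut by ADAM proteases and γ-secretase when it meets its ligand Delta-like 1, after which its intracellular part joins the DNA-binding protein RBPJ and switches on genes such as Dtx1. Marginal zone cells are sorted as CD21-high, CD23-low and CD1d-high, which are the products of Cr2, Fcer2a and Cd1d1. The libraries hold RNA of all isolated cells together, so fewer cells of a type and less RNA per cell cannot be told apart.

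Because RBPJ binds DNA at sites containing GTGGGAA, the start regions of the genes were read for these letters on both strands, using windows of 250 bases before to 50 bases after each start (RefSeq, GRCm38.p6). RefSeq windows matched 8 of the 10 genes, in 12 windows, with 3 starts for Fcer2a and 2 each for Asb2 and Plac8. Cd1d1 and Tm6sf1 were not matched. GTGGGAA was found in 2 of the 12 windows, those of Cr2 and Cd9, and in 6.38% of the 32851 mouse windows of the same length. The shorter TGGGAA, which lies inside GTGGGAA and so overlaps it, was found in 5 of the 12 windows and in 25.6% of all windows. These counts describe letters and not binding. The windows of Cr2 (chr1:195176670-195176969, minus strand), Cd9 (chr6:125494711-125495010, minus strand), the Notch target Dtx1 (chr5:120711620-120711919, minus strand) and the first start of Fcer2a (chr8:3694125-3694424, minus strand) are shown because the comparison below turns on a marginal zone receptor, a Notch target and CD23. Capitals mark GTGGGAA, whose first base lay 221 bases before the start of Cr2 and 212 bases before that of Cd9. The windows of Dtx1 and of this Fcer2a start held neither string of letters, whereas the other 2 Fcer2a windows held TGGGAA, at 2 places and 1 place.
Cr2: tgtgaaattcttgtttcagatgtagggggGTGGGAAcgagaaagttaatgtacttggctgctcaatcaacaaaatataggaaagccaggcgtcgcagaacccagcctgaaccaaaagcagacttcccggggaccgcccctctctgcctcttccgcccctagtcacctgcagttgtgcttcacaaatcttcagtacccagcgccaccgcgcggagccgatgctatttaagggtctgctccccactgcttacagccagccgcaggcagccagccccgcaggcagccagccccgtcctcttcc
Cd9: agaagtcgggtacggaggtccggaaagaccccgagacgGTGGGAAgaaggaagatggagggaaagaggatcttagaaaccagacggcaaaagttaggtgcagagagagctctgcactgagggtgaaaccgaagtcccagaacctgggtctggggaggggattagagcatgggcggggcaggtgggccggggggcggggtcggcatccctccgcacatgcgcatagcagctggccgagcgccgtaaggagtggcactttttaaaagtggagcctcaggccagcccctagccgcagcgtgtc
Dtx1: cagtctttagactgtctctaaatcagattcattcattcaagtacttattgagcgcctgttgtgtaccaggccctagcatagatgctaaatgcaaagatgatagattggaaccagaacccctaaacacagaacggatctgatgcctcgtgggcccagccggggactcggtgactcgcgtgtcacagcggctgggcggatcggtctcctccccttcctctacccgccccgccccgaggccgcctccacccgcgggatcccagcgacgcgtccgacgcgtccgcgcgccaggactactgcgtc
Fcer2a: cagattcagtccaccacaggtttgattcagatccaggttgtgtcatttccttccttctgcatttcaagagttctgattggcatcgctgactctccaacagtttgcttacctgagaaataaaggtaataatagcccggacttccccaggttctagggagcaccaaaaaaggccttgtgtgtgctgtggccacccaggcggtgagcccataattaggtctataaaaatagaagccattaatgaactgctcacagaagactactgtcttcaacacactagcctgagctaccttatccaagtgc

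The libraries differed in their level of pan-B cell transcripts. Averaged over 16 pan-B cell genes, log2(TPM + 1) was 4.48 to 7.73 in UMPS_BKO and 7.02 to 8.40 in control libraries, and UMPS_BKO replicate 1 lay among the controls. Sequencing depth, in units of 1000000 reads recovered from TPM, was 5.81 to 28.6 per library. Ribosomal RNA-like features took 37.6% to 60.5% of TPM in UMPS_BKO and 5.42% to 60.3% in control libraries. Mitochondrial features took 8.42%, 19.2%, 18.5% and 17.2% of TPM in UMPS_BKO replicates 1 to 4, and 5.33% to 9.12% in control libraries. The part of this share in the members' values was not tested. The median log2 difference of all 10708 tested genes was −0.90, and −0.15 after median-of-ratios scaling. Muscle genes summed to 129711 TPM in UMPS_BKO replicate 4 (10 genes), and liver genes to 41746 and 12620 TPM in control replicates 2 and 3 (8 genes). Red cell genes (9 in the table) summed to 4170 to 46979 TPM in UMPS_BKO and 123 to 522 TPM in controls. Umps had 5.99, 1.05, 13.6 and 2.16 TPM in UMPS_BKO replicates 1 to 4, against 16.1, 35.1, 18.6 and 8.98 TPM in control replicates 1 to 4. The groups thus overlapped in the targeted gene (log2 difference −1.88 ± 0.76 SE, adjusted p = 0.283, limma). After subtracting the average of the 16 pan-B cell genes in each library, Umps differed by −0.27 ± 0.82 SE (adjusted p = 0.907, limma). After subtracting Fcer2a in each library it differed by 0.02 ± 0.93 SE (adjusted p = 0.992, limma). Transcripts of Fcgr2b, the gene labelled as absent in both groups, were read at 2.18 to 9.54 TPM in UMPS_BKO and 8.42 to 16.8 TPM in control libraries.

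No member passed an adjusted p of 0.05 in either direction. The test (limma on log2(TPM + 1), Benjamini-Hochberg adjusted over all tested genes) called 0.0374% of those genes higher and 0.0934% lower. At an unadjusted p under 0.05, Fcer2a, Plac8 and Tm6sf1 were lower, 3 of 10, and 0 were higher, where 16.4% of all tested genes were lower and 0.925% higher. In no member were the groups apart in every library, compared with 0.504% of tested genes for higher and 4.81% for lower. The median log2 difference of the 9 marginal zone genes was −1.22, beside the −0.90 of all tested genes. With median-of-ratios scaling the differences of Notch2 (−0.60), Plac8 (−0.73), Cd9 (−0.49), Cd1d1 (−0.33) and Dtx1 (−0.30) were less than 0.5 times those on TPM as deposited that are given below, and Myof changed sign. TPM divides by transcript length, but no source used here gives the formula or the annotation release. The order of levels between genes given below is therefore approximate.

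**Figure D1:**
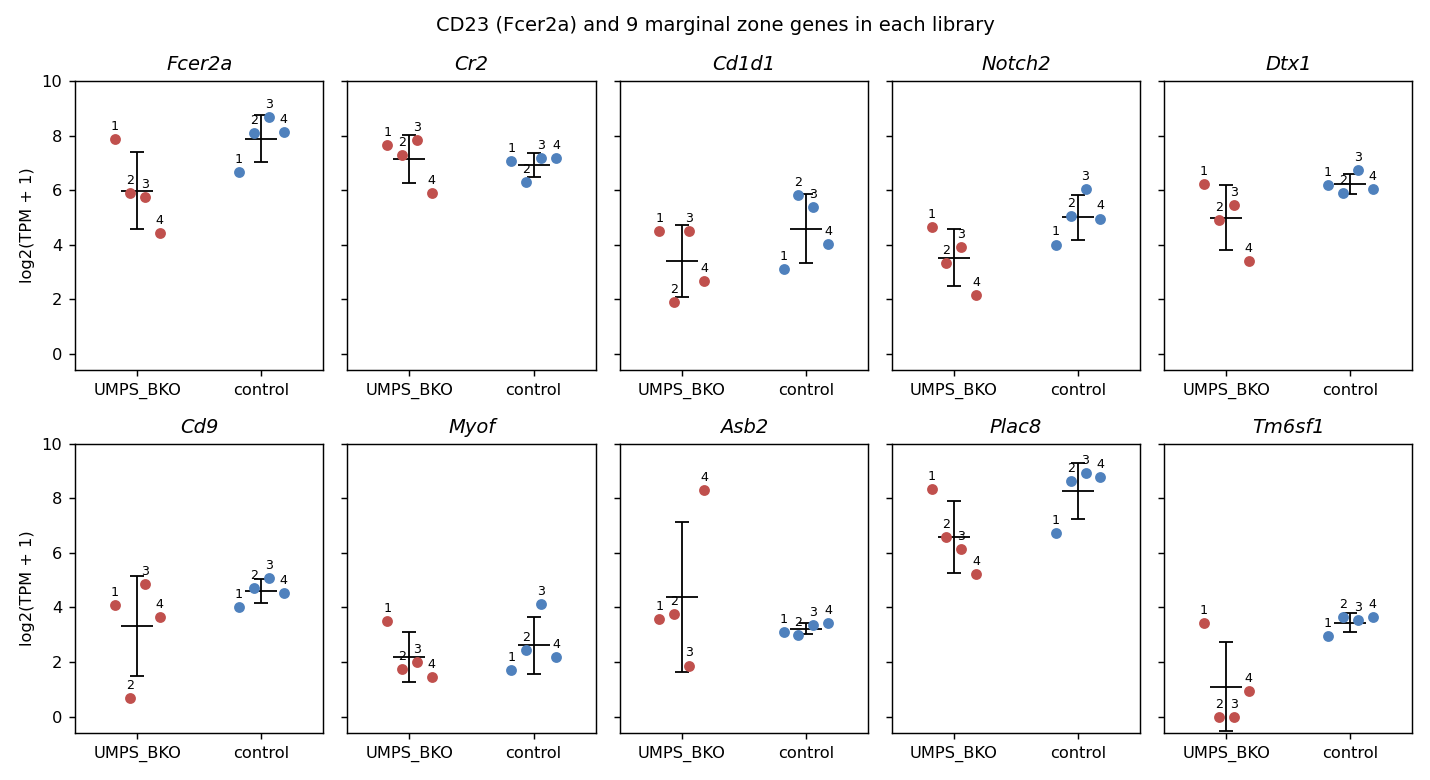
Expression of Fcer2a and 9 marginal zone genes as log2(TPM + 1) in each library, with UMPS_BKO on the left and control on the right of each panel. Points are libraries with their replicate number, and bars are the mean and SD of 4 libraries. UMPS_BKO replicate 1 sits at control level for Fcer2a, Plac8 and Tm6sf1, and UMPS_BKO replicate 4 is alone at the top for Asb2.

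Plac8, Fcer2a and Cr2 were the 3 highest members in 7 of the 8 libraries, and in UMPS_BKO replicate 4 they followed Asb2. Plac8 exceeded Fcer2a in each of the 8 libraries. Cr2 led in UMPS_BKO replicates 2 and 3 and in control replicate 1, and Plac8 in UMPS_BKO replicate 1 and the other 3 controls. Dtx1 was at rank 4 in 7 libraries. In the controls the mean log2(TPM + 1) was 8.26 ± 1.03 for Plac8, 7.88 ± 0.86 for Fcer2a, 6.93 ± 0.44 for Cr2 and 6.22 ± 0.37 for Dtx1 (SD, n = 4), followed by 5.01 ± 0.83 for Notch2, 4.59 ± 0.44 for Cd9 and 4.59 ± 1.26 for Cd1d1. The lowest were Tm6sf1 (3.44 ± 0.34), Asb2 (3.22 ± 0.21) and Myof (2.61 ± 1.05). Neighbours in this order differed by less than their summed SDs, except Dtx1 and Notch2, which lay at that limit.

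Fcer2a (ENSMUSG00000005540, GRCm38 chr8:3681737-3694175, minus strand) was lower in 3 of the 4 UMPS_BKO libraries than in any control. It had 235, 59.0, 52.5 and 20.4 TPM in UMPS_BKO replicates 1 to 4, against 100.5, 271, 406 and 277 TPM in control replicates 1 to 4. UMPS_BKO replicate 1 was above control replicate 1, so the groups overlapped. The means were 91.7 ± 96.9 TPM in UMPS_BKO and 263 ± 125 TPM in controls (SD, n = 4 each), with a log2 difference of −1.90 ± 0.74 SE (adjusted p = 0.283, limma). The values rest on 997 to 13674 recovered reads per library. With median-of-ratios scaling the log2 difference was −0.95 (adjusted p = 0.650, limma). Per unit of pan-B cell signal, that is, after subtracting the average of the 16 pan-B cell genes in each library, Fcer2a differed by −0.29 ± 0.42 (adjusted p = 0.798, limma), with an interval of −1.20 to 0.63. The median of all tested genes was 0.72 there. The log2 values of Fcer2a on that scale were 0.15, −0.17, −0.86 and −0.06 in UMPS_BKO replicates 1 to 4, against −0.35, 0.12, 0.27 and 0.17 in control replicates 1 to 4. Only UMPS_BKO replicate 3 fell outside the controls' range.

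Cr2 (ENSMUSG00000026616, GRCm38 chr1:195136811-195176716, minus strand) encodes the complement receptors CD21 and CD35 of the mouse, by which marginal zone cells bind complement-coated antigen. Its level was 199.6, 154, 226 and 57.9 TPM in UMPS_BKO replicates 1 to 4, against 132, 76.9, 145 and 145 TPM in control replicates 1 to 4. UMPS_BKO replicates 1, 2 and 3 lay above all controls and replicate 4 below them. Means were 159 ± 73.9 TPM in UMPS_BKO and 125 ± 32.4 TPM in controls (SD, n = 4 each), and the log2 difference was 0.23 ± 0.57 SE (adjusted p = 0.809, limma), with an interval of −1.02 to 1.47. With 2890 to 30495 recovered reads per library, counting error was small beside this spread. The difference of Cr2 was above those of 88.9% of tested genes. It was 0.01 without UMPS_BKO replicate 3, 0.65 without UMPS_BKO replicate 4 and 1.18 with median-of-ratios scaling.

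Cd1d1 (ENSMUSG00000028076, GRCm38 chr3:86995834-86999441, minus strand) encodes CD1d, which presents lipid antigen to natural killer T cells. It had 21.6, 2.69, 21.9 and 5.39 TPM in UMPS_BKO replicates 1 to 4, against 7.63, 56.2, 41.2 and 15.1 TPM in control replicates 1 to 4. The groups overlapped widely, since control replicate 1 was below UMPS_BKO replicates 1 and 3. UMPS_BKO minus control gave a log2 difference of −1.20 ± 0.82 SE (adjusted p = 0.390, limma). Its close copy Cd1d2 was listed at 0 in each of the 8 libraries.

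Notch2 (ENSMUSG00000027878, GRCm38 chr3:98013527-98150361, plus strand), the receptor that marginal zone cells need, had 23.9, 9.06, 14.3 and 3.49 TPM in UMPS_BKO replicates 1 to 4, against 15.1, 31.9, 64.2 and 30.1 TPM in control replicates 1 to 4. UMPS_BKO replicates 2, 3 and 4 were below all controls. The log2 difference was −1.49 ± 0.69 SE (adjusted p = 0.287, limma). Dtx1 (ENSMUSG00000029603, GRCm38 chr5:120680202-120711927, minus strand), a ubiquitin ligase of the Deltex family and a Notch2 target in marginal zone cells, had 74.0, 29.0, 42.8 and 9.49 TPM in UMPS_BKO replicates 1 to 4, against 71.8, 58.3, 106 and 65.7 TPM in control replicates 1 to 4. Here too the same 3 UMPS_BKO libraries were below all controls and UMPS_BKO replicate 1 was among them. The log2 difference was −1.22 ± 0.65 SE (adjusted p = 0.309, limma). Per unit of pan-B cell signal, Notch2 differed by 0.12 ± 0.54 (adjusted p = 0.940) and Dtx1 by 0.39 ± 0.48 (adjusted p = 0.760, limma). The sign of both thus turned with the scale. The median of all tested genes turned too, from −0.90 to 0.72.

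The rest of the Notch pathway was measured with a list of 21 receptors and signalling components, in which 21 were tested and 0 passed in either direction. Their median log2 difference was −1.06, beside −0.90 for all tested genes, and 0.55 per unit of pan-B cell signal, beside 0.72. Adam17 (−1.74) and Maml1 (−1.66) were lower at an unadjusted p under 0.05, 2 of 21, where 16.4% of all tested genes were. Both were singled out for that p. Among the 4 most abundant, the γ-secretase subunits Psenen and Psen2 differed by −1.08 and −0.71, the protease Adam10, which cuts Notch2 in marginal zone cells, by −1.26, and Lfng, a sugar transferase that tunes Notch for Delta-like 1, by −1.74, all with adjusted p of at least 0.302 (limma). Of 7 other Notch targets, 2 were tested and 0 passed. Hes1, the classic target, had 51.7, 24.9, 46.5 and 24.7 TPM in UMPS_BKO replicates 1 to 4, against 41.2, 43.4, 51.6 and 49.8 TPM in control replicates 1 to 4, a log2 difference of −0.40 ± 0.53 SE (adjusted p = 0.643, limma). Nrarp, a feedback inhibitor, differed by −0.998 ± 0.68 and was listed at 0 in 3 libraries. The 4 other Deltex genes were all tested, 0 passed, and their median was −0.72.

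Cd9 (ENSMUSG00000030342, GRCm38 chr6:125460266-125494791, minus strand), a tetraspanin on marginal zone and B-1 cells and on platelets, had 15.9, 0.597, 27.9 and 11.5 TPM in UMPS_BKO replicates 1 to 4, against 15.3, 25.4, 33.0 and 22.4 TPM in control replicates 1 to 4. UMPS_BKO replicates 1 and 3 lay within the range of the controls and replicates 2 and 4 below it, with 12 recovered reads in replicate 2 and 756 in replicate 3. Gm28809 overlaps Cd9 on the other strand, at up to 3.83 TPM. The strand setting of the counting is not given, so reads of these genes cannot be told apart. For Cd9 the log2 difference was −1.28 ± 0.84 SE (adjusted p = 0.373, limma), and −0.40 without UMPS_BKO replicate 2. The 7 platelet genes summed to 23.1, 104, 128 and 46.0 TPM in UMPS_BKO replicates 1 to 4, against 26.8, 24.9, 42.6 and 24.1 TPM in control replicates 1 to 4. Cd9 was thus lowest in a library whose platelet sum was among the highest, and highest in UMPS_BKO in the library with the highest platelet sum. The part of platelets in the Cd9 values was not tested.

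Plac8 (ENSMUSG00000029322, GRCm38 chr5:100553725-100572245, minus strand) encodes a small cysteine-rich protein. It had 327, 93.7, 70.1 and 36.7 TPM in UMPS_BKO replicates 1 to 4, against 104, 393, 481 and 434 TPM in control replicates 1 to 4. The pattern was that of Fcer2a, with 3 UMPS_BKO libraries below all controls. For Plac8 the log2 difference was −1.68 ± 0.74 SE (adjusted p = 0.283, limma).

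Tm6sf1 (ENSMUSG00000038623, GRCm38 chr7:81859001-81884434, plus strand), a membrane protein gene, had 9.83, 0, 0 and 0.919 TPM in UMPS_BKO replicates 1 to 4, against 6.68, 11.6, 10.6 and 11.6 TPM in control replicates 1 to 4. It was the member with the lowest difference, −2.35 ± 0.81 SE (adjusted p = 0.283, limma). The controls rest on 154 to 742 recovered reads, and a count of 0 allows up to 3 reads, or 0.0515 TPM in UMPS_BKO replicate 2 and 0.0382 TPM in UMPS_BKO replicate 3. UMPS_BKO replicate 1 was within the controls' range. Without that library Tm6sf1 was called lower (−3.13, adjusted p = 0.0427, limma), and it was not called in any of the other 18 alternative settings. Gm45014 and Hdgfl3 overlap it on the other strand, at up to 12.0 and 2.07 TPM, and since no source used here gives the strand setting of the counting, reads of the 3 genes cannot be told apart.

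Myof (ENSMUSG00000048612, GRCm38 chr19:37899036-38043577, minus strand) encodes myoferlin, a ferlin that acts in membrane fusion and repair. Its values were 10.3, 2.37, 3.01 and 1.74 TPM in UMPS_BKO replicates 1 to 4, against 2.24, 4.42, 16.3 and 3.56 TPM in control replicates 1 to 4. A single library stood out in each group and the others overlapped. The log2 difference was −0.43 ± 0.75 SE (adjusted p = 0.727, limma), and was 0.32 with median-of-ratios scaling, so no direction can be given.

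Asb2 (ENSMUSG00000021200, GRCm38 chr12:103321142-103356001, minus strand) encodes the substrate-binding part of a ubiquitin ligase that acts on filamins, and is used in muscle as well as in blood cells. It had 10.9, 12.6, 2.66 and 318 TPM in UMPS_BKO replicates 1 to 4, against 7.61, 6.93, 9.28 and 9.85 TPM in control replicates 1 to 4. The controls lay close together, and the log2 difference of 1.16 ± 1.10 SE (adjusted p = 0.511, limma) was set by UMPS_BKO replicate 4. Without it the difference was −0.16 (adjusted p = 0.893, limma). In that library the 10 muscle genes summed to 129711 TPM, against 278 to 1372 TPM in the other 3 UMPS_BKO libraries and 0 to 3030 TPM in the controls. Acta1, the skeletal muscle actin, alone reached 23802 TPM there. The part of muscle RNA in the Asb2 value was not tested.

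**Figure D2:**
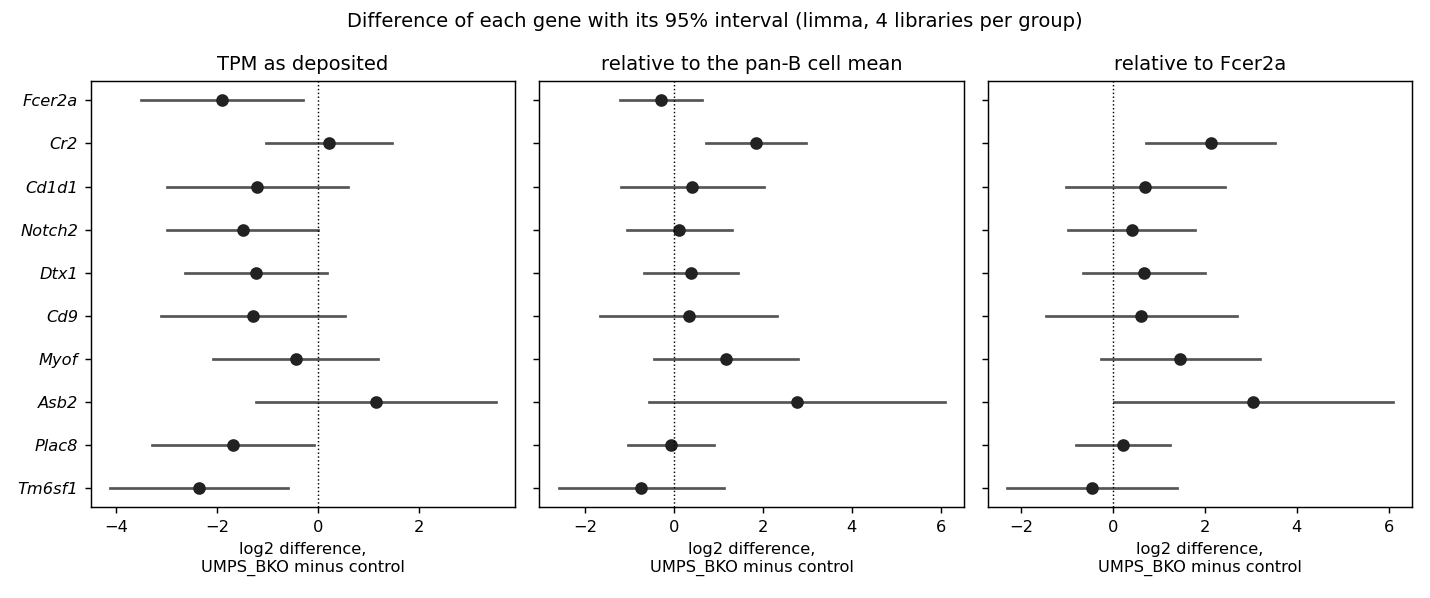
Log2 difference, UMPS_BKO minus control, of each gene with its 95% interval (limma, 4 libraries per group), for TPM as deposited (left), relative to the mean of 16 pan-B cell genes (middle) and relative to Fcer2a (right). Cr2 lies at 0.23 on the left and at 1.84 and 2.13 in the relative scales, while Plac8 lies near 0 in both relative scales. The median of all tested genes, not drawn, is −0.90 on the left, 0.72 in the middle and 1.00 on the right.

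Set against CD23 in the same library, the marginal zone genes did not all shift one way. Relative to Fcer2a, the differences were positive for 8 of the 9 genes and their median was 0.67, but the median of all tested genes on this scale was 1.00. A positive value here is a difference above that of Fcer2a, and only 11.1% of all tested genes lay below Fcer2a. The count of positive genes is therefore near that of genes in general. No gene of the 9 passed the adjusted threshold, which 0.0467% of 10707 genes passed as higher and 0.0187% as lower. At an unadjusted p under 0.05, Cr2 and Asb2 were higher, 2 of 9, where 12.1% of all genes were.

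Of the 9 genes, Cr2 had the smallest unadjusted p against CD23. The ratio of Cr2 to Fcer2a TPM was 0.850, 2.61, 4.31 and 2.84 in UMPS_BKO replicates 1 to 4, against 1.31, 0.284, 0.356 and 0.525 in control replicates 1 to 4. UMPS_BKO replicates 2, 3 and 4 were above all controls, and UMPS_BKO replicate 1 was below control replicate 1. The log2 difference was 2.13 ± 0.66 SE (adjusted p = 0.390, limma). Without UMPS_BKO replicate 1 it was 2.59 and passed (adjusted p = 0.0437), while over the other alternatives the adjusted p was 0.143 to 0.828 (limma). Without UMPS_BKO replicate 4 (muscle) and control replicate 2, the more liver-marked of the 2 such controls, it was 1.75, with control replicate 3 kept. Relative to the pan-B cell mean the difference of Cr2 was 1.84 ± 0.52 SE (adjusted p = 0.471, limma), beside a median of 0.72 for all tested genes. It was above the differences of 88.9% of tested genes, as on TPM as deposited. Cr2 was the single member past an unadjusted p of 0.05 on that scale, where 8.05% of tested genes were higher and 0.906% lower. There 0 of 10 members passed the adjusted threshold, beside 0.0374% of genes higher and 0.0187% lower, and 0 had groups that did not overlap, beside 3.13% higher and 0.551% lower.

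**Figure D3:**
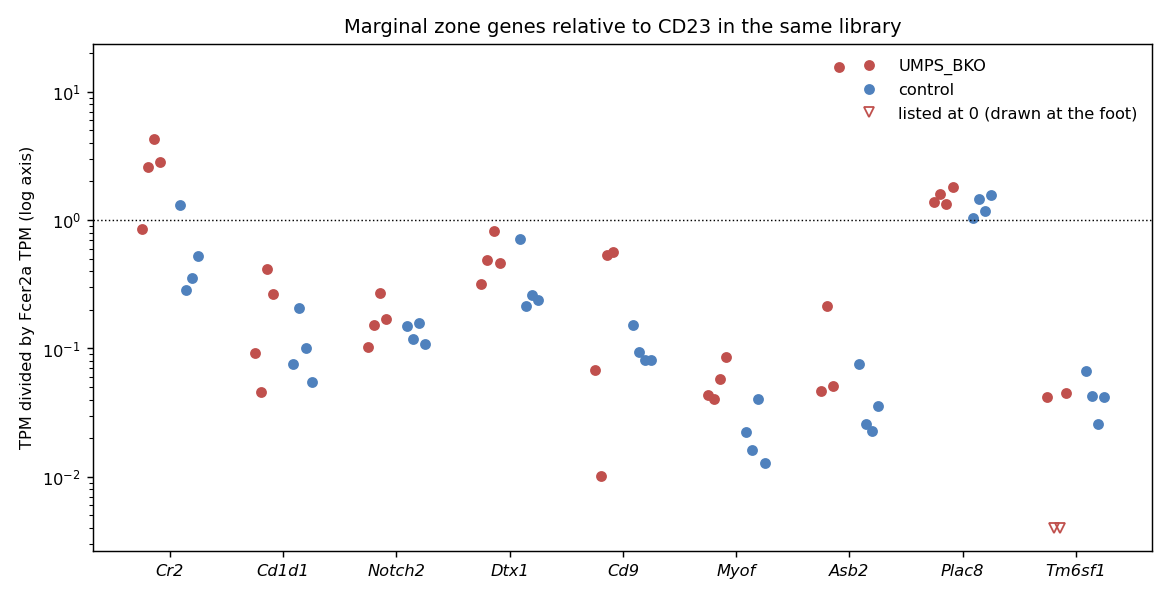
TPM of each marginal zone gene divided by that of Fcer2a in the same library, on a log axis, with UMPS_BKO in red and control in blue. Open triangles are libraries with Tm6sf1 listed at 0. For Cr2, 3 UMPS_BKO libraries lie between 2.61 and 4.31, above the highest control at 1.31, and Plac8 lies between 1.04 and 1.80 in all 8 libraries.

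Plac8 kept an almost constant ratio to Fcer2a of 1.39, 1.59, 1.34 and 1.80 in UMPS_BKO replicates 1 to 4, against 1.04, 1.45, 1.19 and 1.57 in control replicates 1 to 4, although both genes varied more than 10-fold between libraries. Its difference relative to Fcer2a was 0.22 ± 0.48 SE (adjusted p = 0.784, limma), with an interval of −0.80 to 1.24. Myof was the 1 gene whose groups did not overlap on this scale, where 3.12% of all genes were higher and 0.392% lower without overlap. Its log2 values relative to Fcer2a were −4.39, −4.15, −3.74 and −2.96 in UMPS_BKO replicates 1 to 4, against −4.97, −5.65, −4.55 and −5.93 in control replicates 1 to 4, a difference of 1.46 ± 0.80 SE (adjusted p = 0.409, limma). As a plain TPM ratio, the lowest UMPS_BKO value and the highest control value were both 0.0402. Asb2 differed by 3.05 ± 1.42 SE (adjusted p = 0.390, limma), and by 1.22 without UMPS_BKO replicate 4. Cd1d1 (0.70), Dtx1 (0.67), Cd9 (0.62), Notch2 (0.41) and Tm6sf1 (−0.45) all had adjusted p of at least 0.545 (limma).

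The order of the libraries by the ratio of Cr2 to Fcer2a was close to the reverse of their pan-B cell level. The 4 libraries with the highest ratio, UMPS_BKO replicates 3, 4 and 2 and control replicate 1, were the 4 with the lowest pan-B cell mean, at 6.60, 4.48, 6.08 and 7.02. UMPS_BKO replicate 1 combined a pan-B cell level of 7.73 with a ratio of 0.850, and in control replicates 2, 3 and 4 the means were 7.96, 8.40 and 7.95 and the ratios 0.284, 0.356 and 0.525. Fcer2a TPM itself enters the ratio and moved with the pan-B cell mean. The part of B cell RNA content in the ratio was not tested.

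**Figure D4:**
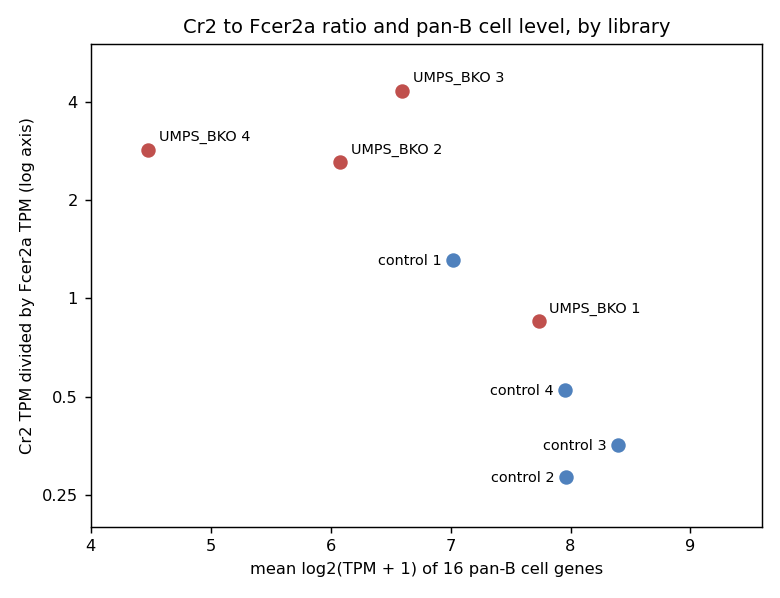
Ratio of Cr2 to Fcer2a TPM (log axis) against the pan-B cell level (log2(TPM + 1) averaged over 16 genes), 1 point per library, UMPS_BKO in red and control in blue. Control replicate 1 (7.02, ratio 1.31) lies between UMPS_BKO replicate 1 (7.73, ratio 0.850) and the 3 UMPS_BKO libraries with ratios of 2.61 to 4.31. UMPS_BKO replicate 1 lies between control replicate 1 and the other controls.

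Genes of highest likeness to CD23 and to Cr2 were found by the SD, over the 8 libraries, of the log2 ratio to each, among 4847 genes with a mean of at least 10 TPM. For Fcer2a these were Rab8a (SD 0.195), Ets1 (0.225), Snx2 (0.227) and Rap1b (0.242), and Plac8 followed at rank 5 (0.244). The pan-B cell genes Fcrla, Ms4a1 and Cd37 ranked 18, 26 and 51, and of the marginal zone genes Notch2 ranked 229, Dtx1 764, Cd1d1 1889, Cr2 3205, Cd9 3381 and Asb2 4690. For Cr2 the closest were Jade1 (0.244), Arhgap15 (0.306), Siglecg (0.336) and Bcl2 (0.340). The pan-B cell genes Bank1, Ebf1, Ralgps2 and Pax5 ranked 17, 27, 100 and 146, and the marginal zone gene nearest to Cr2 was Dtx1 at 528. Myof and Tm6sf1 were below the mean TPM required. Since libraries differ in depth and composition, genes can share such a pattern through the library alone.

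Cr2 was also set beside the 16 pan-B cell genes, which mark no B cell subset. Of these, 2 had a positive log2 difference, 14 a negative one, and the median was −1.76. Those named here as near Cr2 were picked for their likeness to it. Pax5, the master regulator of B cell identity, had a log2 difference of 0.30 ± 0.55 SE, and the early B cell factor Ebf1 one of 0.08 ± 0.58, beside 0.23 ± 0.57 for Cr2. Bank1, an adaptor of the B cell receptor, differed by −0.19 ± 0.54, and Ralgps2 by −0.59 ± 0.62. By contrast, the B cell receptor chains Cd79a and Cd79b differed by −2.75 ± 0.90 and −2.56 ± 0.89 (adjusted p = 0.283 for each, limma). Relative to the pan-B cell mean, Pax5 differed by 1.91 ± 0.68, Ebf1 by 1.70 ± 0.63 and Bank1 by 1.42 ± 0.56, beside 1.84 ± 0.52 for Cr2 (adjusted p = 0.545 for the first 3, limma). The median of all tested genes on that scale was 0.72.

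The summed exon length was 8112 bases for Cr2, 8853 for Pax5, 9756 for Ebf1 and 7486 for Bank1, against 1457 for Cd79a, 1431 for Cd79b and 3092 for Fcer2a. Over all tested genes with a length, the median log2 difference in 4 equal bins was −1.09 at exon lengths of 38 to 2448 bases, −1.03 at 2449 to 4130, −0.91 at 4132 to 6451 and −0.67 at 6452 to 93092. Individual genes departed from this order. Notch2, with 10782 bases, differed by −1.49, Ets1, with 8476 bases, by −1.73, and Siglecg, with 4806 bases, by 0.10. Whether exon length has a part in the Cr2 values was not tested.

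**Figure D5:**
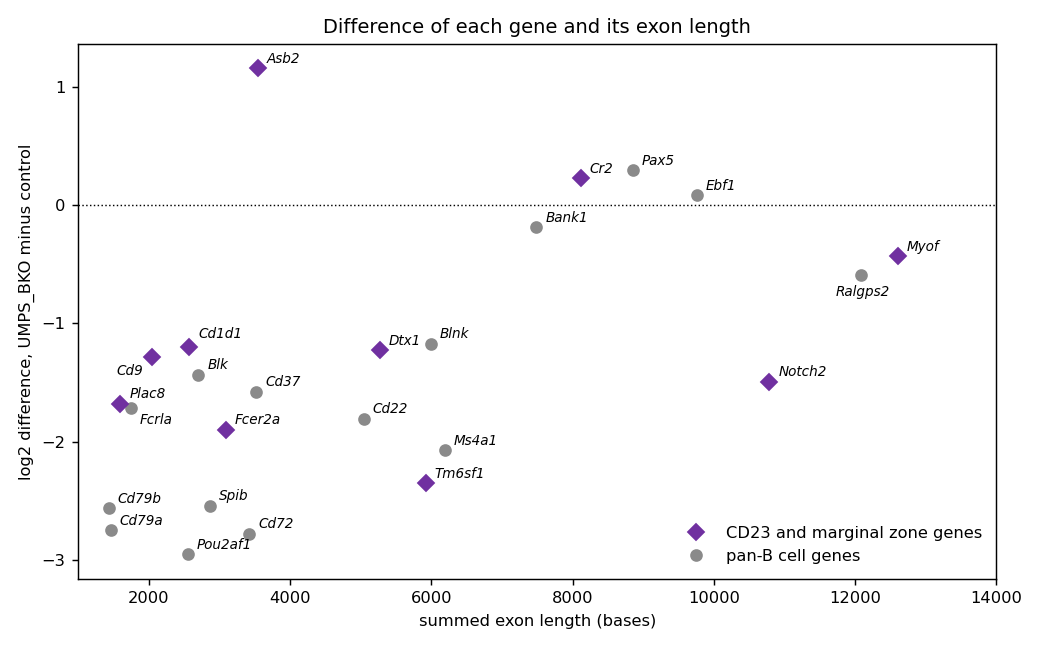
Log2 difference, UMPS_BKO minus control, against summed exon length in bases, for Fcer2a and the 9 marginal zone genes (diamonds) and 15 of the 16 pan-B cell genes (circles). Cr2, Pax5, Ebf1 and Bank1, with 7486 to 9756 bases, lie between −0.19 and 0.30, and Notch2, with 10782 bases, lies at −1.49.

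Further genes of the marginal zone and follicular programmes were read from lists chosen by name. Of 9 other marginal zone genes 8 were tested, 0 passed in either direction, and the median log2 difference was −1.07, beside −0.90 for all tested genes. Mzb1, a chaperone of antibody assembly, differed by −2.07 ± 0.77, S1pr1, a receptor that holds cells in the marginal zone, by −1.39 ± 0.71, Marcks by −0.19 ± 0.60 and Rgs10 by −0.52 ± 0.65. Fcrl5 (−2.78) and Mzb1 were lower at an unadjusted p under 0.05, 2 of 8, where 16.4% of all tested genes were. Fcrl5 was singled out for that p. Of 9 other follicular genes, 9 were tested and 0 passed, while 7 were lower at an unadjusted p under 0.05, as were 16.4% of all tested genes, and the median was −2.33. Ighd, the constant region of IgD, had 875, 180, 279 and 37.0 TPM in UMPS_BKO replicates 1 to 4, against 540, 973, 1569 and 999 TPM in control replicates 1 to 4 (−2.23 ± 0.83 SE, adjusted p = 0.283, limma). Fcmr, the IgM Fc receptor, differed by −3.22 ± 0.88 (adjusted p = 0.277, limma). Per unit of pan-B cell signal the medians were 0.54 for the marginal zone list and −0.72 for the follicular list, beside 0.72 for all tested genes.

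Among 17 regulators of the marginal zone and follicular choice, 17 were tested and 0 passed. The median was −1.63, or −0.02 per unit of pan-B cell signal, beside −0.90 and 0.72 for all tested genes. At an unadjusted p under 0.05, 9 of the 17 were lower, beside 16.4% of all tested genes. Ets1 differed by −1.73 ± 0.72 and the kinase Lyn by −1.93 ± 0.74 (adjusted p = 0.283 for each, limma). Of the 16 pan-B cell genes, 0 passed and 10 were lower at an unadjusted p under 0.05, beside the same 16.4%.

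Other cells of the spleen also use some of the 10 genes. Follicular dendritic cells express Cr2 and Fcer2a, and 4 of 5 of their marker genes were in the table. These summed to 0 to 4.37 TPM in UMPS_BKO and 0 to 18.6 TPM in control libraries, with Madcam1 listed at 0 in every library and no gene tested. The 12 monocyte and macrophage genes summed to 51.8 to 378 TPM in UMPS_BKO and 185 to 591 TPM in controls, with 12 tested and 0 called. Transitional B cell genes had 3 of 5 tested and B-1 cell genes 2 of 4, with 0 called in both lists and medians of −0.82 and −0.70. Germinal centre and plasma cell genes had medians of −2.99 (7 tested) and −3.30 (4 tested), beside −0.90 for all tested genes, with 0 called. At an unadjusted p under 0.05 (limma), 5 of the 7 and 3 of the 4 were lower, beside 16.4% of all tested genes. Per unit of pan-B cell signal these 2 medians were −1.38 and −1.69, beside 0.72 for all tested genes. Erythroid genes held the 3 calls among all of these lists, Hbb-bs, Hba-a1 and Hbb-bt, each higher, of which Hbb-bt was named because it was called. The part of other cells in the members' values was not tested.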

How the data were processed

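The authors deposited 1 table of TPM (transcript abundance per 1000000, divided by transcript length) of 49315 features and 8 libraries, in which every library sums to 1000000. The tools named in the submitters' processing notes are STAR 2.5.2b, Subread 1.5.2 with featureCounts, and bcl2fastq 2.20, with the build GRCm38. No source used here gives the formula for TPM, the annotation release or the strand setting. The 8 columns were matched to samples by the library names in the labels.

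Coordinates and exon lengths came from GENCODE M21 (GRCm38). Low TPM values, those under 30 reads, were multiplied by exon length and were whole multiples of a step in 90.3% to 92.4% of cases (tolerance 0.05 reads), which gave recovered reads and depth. Reads are not independent molecules, so limits from 3 reads cover counting error only. TPM is not a count, and no count model was run.

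Genes with at least 1 TPM in at least 4 of the 8 libraries were tested (10708), including all 10 members. R 4.3.3 and limma 3.58.1 (lmFit, then eBayes with a trend) gave two-sided tests on log2(TPM + 1) ( Benjamini-Hochberg over all tested genes, threshold 0.05, 95% intervals). Fold changes on this scale understate those of low genes. The same fit was repeated after subtracting the pan-B cell mean (16 genes) or Fcer2a (10707 genes) in each library. Tables were made with Python 3.11.15, pandas 2.3.3 and numpy 2.4.6. The fit was tested on simulated data, with values drawn independently for each gene. Those data did not copy the differences in composition between these libraries, so the fit was not tested under them.

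The members, gene lists, tests and alternatives were chosen with earlier results of these data known. The 10 members, Umps, Fcgr2b and the 4 genes most like Fcer2a and Cr2 were named by rule. For each other list the rule was the 2 tested genes of highest mean TPM (4 in the Notch and marginal zone lists). That rule was not applied in full, since the genes of several lists are not named here. Madcam1 and Cd1d2, both listed at 0 in every library, were named outside it. Pan-B cell genes other than Cd79a and Cd79b, and genes said to be singled out, were chosen after their values were seen. The values of 1 pan-B cell gene are not reported here. Replicate numbers are not stated to pair the samples. Alternatives were other pseudocounts (0.1 and 5), filters (none, or a mean of at least 5 TPM), scalings, no trend, a replicate block, the pan-B cell mean as covariate, and libraries left out.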

Additional observations from a re-analysis of the deposited data

Results flagged for a closer look

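In groups of 4 libraries, 7 of 58 sets of values had 1 library far from the other 3. Chance gives about 1 in 20 for independent, normally distributed values. The 58 sets reuse the same genes and libraries on up to 3 scales, and TPM need not be normally distributed. No excess over chance can therefore be read from this count. Asb2 had 318 TPM in UMPS_BKO replicate 4, against 12.6 TPM in the next UMPS_BKO library. Tm6sf1 had 9.83 TPM in UMPS_BKO replicate 1, against 0.919 TPM in the next. Myof had 10.3 TPM in UMPS_BKO replicate 1, with 3.01 TPM in the next UMPS_BKO library, and 16.3 TPM in control replicate 3, with 4.42 TPM in the next control. Relative to the pan-B cell mean on the log2 scale, Cr2 stood at −0.0859 in UMPS_BKO replicate 1, with the nearest UMPS_BKO library at 1.20, and Notch2 at −2.37 in control replicate 3, with the nearest control at −2.92. Relative to Fcer2a, Dtx1 stood at −0.478 in control replicate 1, with the nearest control at −1.92.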

How the results depend on the processing

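Over 19 alternative settings, 179 of 190 log2 differences of the 10 genes kept their direction and their side of the threshold, and 10 reversed. A covariate for the pan-B cell mean reversed Cd1d1 (0.12), Dtx1 (0.041), Myof (0.75) and Asb2 (−1.02). Myof was also reversed by median-of-ratios scaling (0.32), quantile normalization (0.42), rescaling without ribosomal RNA-like and mitochondrial features (0.22) and without control replicate 3 (0.069); over the libraries left out in turn it was −0.87 to 0.069. Asb2 was −0.16 without UMPS_BKO replicate 4, up to 1.99 with another library left out, and −0.23 without a pair of libraries, UMPS_BKO replicate 4 (muscle) and control replicate 2 (the more liver-marked control; control replicate 3, also marked, was kept). On the scale of the pan-B cell mean, 9 of 170 values reversed. Notch2 was −0.012 to 0.27 over the libraries left out in turn and −0.045 without that pair. Cd9 was −0.36 (without UMPS_BKO replicate 4; −0.058 without replicate 3) to 1.16, and −0.37 without that pair. Plac8 was −0.31 to 0.20 (0.20 without UMPS_BKO replicate 3, 0.013 and 0.063 without control replicates 2 and 4), and Tm6sf1 was 0.38 at a pseudocount of 5. On the scale of Fcer2a, 3 of 153 reversed. Cd9 was −0.019 (without UMPS_BKO replicate 4) to 1.47, and −0.045 without that pair, and Tm6sf1 was 0.68 at a pseudocount of 5. None of these values passed the threshold, and the cause was not tested.

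Leaving out 1 library at a time, 0 to 1 of the 10 genes passed on TPM as deposited (Tm6sf1) and 0 to 1 relative to Fcer2a (Cr2), both without UMPS_BKO replicate 1, and 0 relative to the pan-B cell mean. Counts over all genes were unstable. On TPM as deposited, 4 genes were higher and 10 lower, and leaving out 1 library gave 0 to 17 higher and 1 to 231 lower. The lower count was 5 at a pseudocount of 5, and 6 under a mean of at least 5 TPM, median-of-ratios scaling or quantile normalization. Higher and lower counts were 1 and 7 at a pseudocount of 0.1, 0 and 1 with no filter or with the pan-B cell covariate, 1 and 5 after that rescaling, and 3 and 1 without that pair. Relative to the pan-B cell mean they were 4 and 2, with 0 to 35 and 0 to 16 on leaving out 1 library, 1 and 1 with no trend, 4 and 1 after that rescaling, and 0 and 1 without that pair. Relative to Fcer2a they were 5 and 2, with 0 to 513 and 0 to 35 on leaving out 1 library, 54 and 8 at a pseudocount of 5, 22 and 10 with no filter, 1 and 2 with no trend, and 0 and 0 without that pair.

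Same-numbered libraries did not deviate together (correlations −0.35, −0.19, −0.03 and −0.09), and pairs with unlike numbers lay between −0.19 and 0.31. Libraries also differ in composition, so these correlations cannot tell whether same-numbered libraries share a litter or day, which the labels do not state. With the replicate block, 5 genes were higher and 23 lower on TPM as deposited, 122 and 22 relative to Fcer2a and 6 and 2 relative to the pan-B cell mean, and none of the 10 genes passed. The lowest levels rest on few reads, such as 12 for Cd9 in UMPS_BKO replicate 2.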
